A study of Mus musculus with 4 samples.

Results

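The fibroblast growth factor (FGF) and epidermal growth factor (EGF) families, ligands and receptors together, were followed through 3 mouse neural progenitor cell (NPC) lines and a pool of tissue RNA. Members were the non-control array probes whose gene symbol was Fgf with a number, Fgfr1 to Fgfr4, Fgfrl1, Egf, Egfr, Erbb2, Erbb3, Erbb4, Areg, Ereg, Btc, Hbegf, Tgfa or Nrg1 to Nrg4. This gave 39 genes of the 27658 on the array, namely 21 FGF ligands, 5 FGF receptors, 9 EGF family ligands and 4 EGF family receptors, measured by 81 of 41174 probes. Of the 39 genes, 27 were well above background on at least 1 array and were tested, among 19820 genes tested in all.

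Each sample was 1 array. The NPC lines were NS21 (strain 129/Ola), NS195R (129/Sv) and NSEB5-2C (129/Ola), each derived from a different embryonic stem (ES) cell line. Mixture was a pool, by equal mass, of Swiss Webster RNA from day 11 embryo and from lung, liver, spleen, thymus, kidney and heart, so it held no adult brain. The study asked which genes were at least 1.5-fold above Mixture in NSEB5-2C together with NS195R or NS21. The line labels give no growth medium, passage or clone number, and each line was hybridised 1 time, so p-values measure the spread between lines together with technical error. Because no line has the strain of Mixture, ratios to Mixture hold strain and cell type together, which cannot be told apart.

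FGFs and the EGF family are secreted or membrane-bound growth factors that bind receptor tyrosine kinases, and both receptor families signal through Ras and the ERK kinases. FGF binding to its receptors depends on heparan sulfate, while endocrine FGFs use a klotho protein instead. EGF family ligands are made as membrane precursors that metalloproteases release, and ERBB receptors act as pairs. Neural progenitor cultures are commonly kept dividing with added FGF2 and EGF, and FGF signalling also moves ES cells towards neural fate.

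The labels were checked against marker genes. Of 6 markers of the pooled tissues, 1 (Hba-a1) was well above background in the lines and all 6 in Mixture, with summed levels of 7.25 to 9.32 in the lines against 103500 in Mixture (levels are percent of an array's 75th percentile signal). The markers go against a label field of that sample, which gives an NPC line under doxycycline. Of 10 neural progenitor markers, 10 were well above background in NS195R, 8 in NSEB5-2C and 7 in NS21. Fabp7 and Hes5 were not above background in NS21 or NSEB5-2C, and Sox2 was not in NS21. Non-control spots well above background numbered 23983 to 25690 in the lines and 26840 in Mixture, and the number of arrays limits the precision. Over the 12728 genes measured on all arrays, the median log2 ratio of the lines to Mixture was 0.71, and ratios below are to be read against that shift.

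Of the 6 members that met the study's rule, the promoters of 2 are shown. They are Areg, the member with the highest ratio to Mixture, and Fgfrl1. Both entries are in RefSeq's promoter table (GRCm38.p6), which held 28 of the 39 members. No promoter is printed for Hbegf, Nrg1, Fgf8 or Fgfr1, which also met the rule. Each run is the 250 bases before the annotated start, on the plus strand, at chr5:91139349-91139598 for Areg and chr5:108693979-108694228 for Fgfrl1, and capitals mark motifs.
Areg: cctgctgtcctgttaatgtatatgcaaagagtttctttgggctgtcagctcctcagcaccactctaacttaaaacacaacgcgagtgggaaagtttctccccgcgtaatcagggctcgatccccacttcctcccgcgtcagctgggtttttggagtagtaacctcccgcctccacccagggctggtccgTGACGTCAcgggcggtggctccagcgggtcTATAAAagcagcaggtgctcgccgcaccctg
Fgfrl1: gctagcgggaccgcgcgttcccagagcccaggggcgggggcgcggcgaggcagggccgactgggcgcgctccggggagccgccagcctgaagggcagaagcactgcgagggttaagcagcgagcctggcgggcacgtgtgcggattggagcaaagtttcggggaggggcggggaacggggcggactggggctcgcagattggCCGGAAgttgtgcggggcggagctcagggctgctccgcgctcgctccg
Motifs searched on both strands were AP-1 (TGANTCA), the cAMP response element (TGACGTCA), an ETS core (CCGGAA) and the TATA box (TATAAA). Areg held a cAMP response element 61 to 54 bases and a TATA box 31 to 26 bases before its start, and Fgfrl1 an ETS core 48 to 43 bases before its start. Among 32851 promoters of the same length, 6.75% held AP-1, 1.55% the cAMP response element, 12% the ETS core and 12.4% the TATA box. GC content was 57.2% for Areg and 73.6% for Fgfrl1, with a median of 52.4% over all promoters.

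Of the 27 tested members, 6 (22.2%) lay above Mixture in every line, among them Areg, Hbegf and Fgfr1, beside 43% of all genes tested. Another 13 (48.1%) lay below it in every line, beside 28.8% of all genes, among them Egf, Nrg4, Btc, Fgf18, Fgf21 and Fgfr4. The remaining 8 had lines on both sides. By limma, 0 members rose and 3 fell (Egf, Nrg4 and Btc), where 0.943% of all genes tested rose and 8.91% fell. Nrg4, Btc and Fgf21 were not above background in any line, so they entered the test through Mixture alone. Their spread between lines is that of dim signals. With signal required on all arrays, 0 of all genes passed. At an unadjusted p under 0.05, 2 members (Areg and Fgfr1) were higher and 5 lower, beside 15.6% and 15.4% of all genes. The study's rule took 6 of 27 members, namely Fgf8, Fgfr1, Fgfrl1, Areg, Hbegf and Nrg1, a share of 22.2% beside 36.1% of all genes tested. The median log2 ratio was -0.48 over the 27 members and 0.44 over all genes tested. For those measured on all arrays it was 0.50 over 13 members and 0.71 over 12728 genes. Among all limma calls 9.58% were higher, which became 33% with normexp background correction and 26.5% with quantile normalization. Leaving out any 1 line left 0 calls among all genes. Normexp correction kept the directions and gave smaller log2 ratios for Areg (2.56, adjusted p = 0.215), Egf (-5.52, adjusted p = 0.00324), Fgfr1 (2.06), Fgf18 (-2.18) and Fgfr4 (-2.32), so the folds below hold for the processed signal. In these bulk samples, fewer cells of a type and less RNA per cell cannot be told apart.

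**Figure D1:**
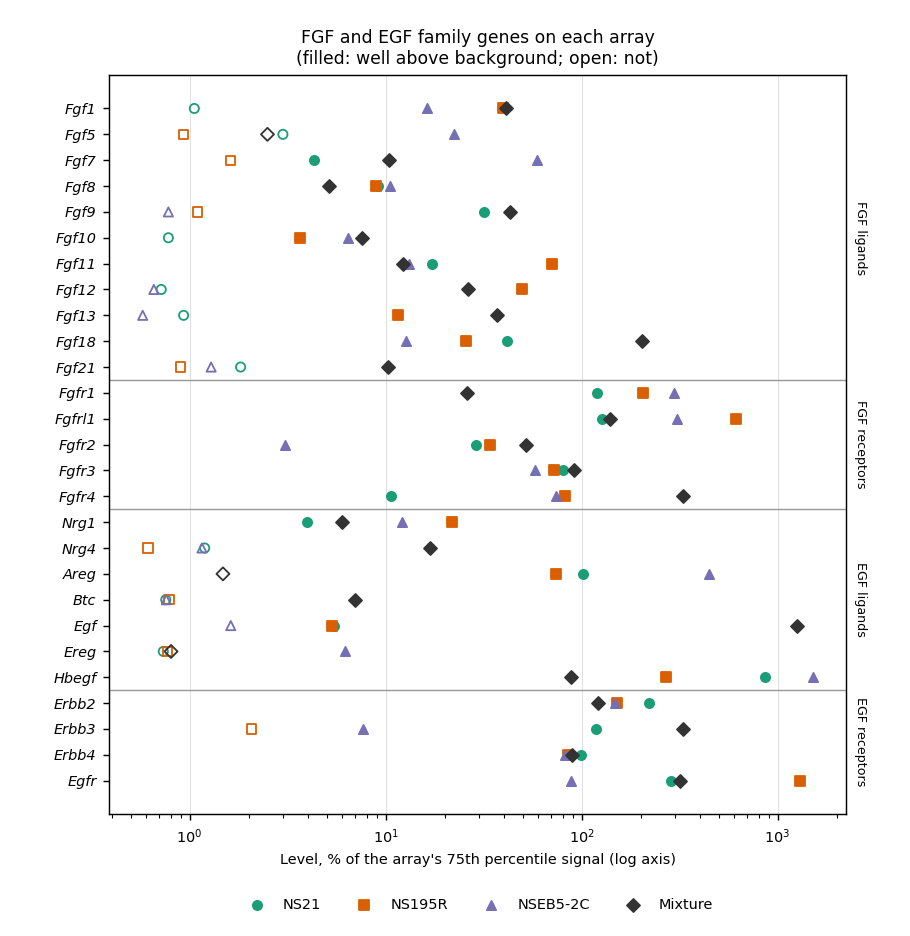
Levels of the 27 tested family members on each array, on a log axis in percent of the array's 75th percentile signal, with NPC lines as coloured symbols and Mixture as a black diamond. Filled symbols are well above background and open ones are not. Areg sits at 74.0 or above in the lines and at 1.48 in Mixture, while Egf sits at 5.43 or below in the lines and at 1254 in Mixture.

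Of the 21 FGF ligands, 10 were well above background in at least 1 line, 3 of them (Fgf8, Fgf11 and Fgf18) in every line. None of the 11 FGF ligands tested passed limma against Mixture. At an unadjusted p under 0.05 the counts were 0 higher and 2 lower, beside 15.6% and 15.4% of all genes tested. Fgf8, an organiser signal of the midbrain-hindbrain border and of limb and face, had levels of 10.6 in NSEB5-2C, 9.10 in NS21 and 8.96 in NS195R, against 5.13 in Mixture. The lines lay close together and all above Mixture, at log2 0.89 over it (SE 0.36, limma adjusted p = 0.206), near the shift of all genes. With normexp correction the log2 ratio was 0.26. A second Fgf8 probe was not above background on any array (0.84 to 1.68).

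Fgf18, which acts in bone, cartilage and lung, had levels of 12.6 in NSEB5-2C, 41.5 in NS21 and 25.7 in NS195R, against 203 in Mixture. Every line was below Mixture, by 8.55-fold on average (log2 -3.10, SE 0.84, limma adjusted p = 0.124). Fgf21, an endocrine FGF made by liver, was not well above background in any line (0.90 to 1.82) and stood at 10.3 in Mixture, at least 3.65-fold lower in the lines (limma adjusted p = 0.0755). A second Fgf21 probe gave the same picture, with 0.55 to 0.84 in the lines and 20.2 in Mixture.

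Fgf1, Fgf5, Fgf7, Fgf9, Fgf10, Fgf12 and Fgf13 were above background in some lines and not in others, and their ratios to Mixture had wide errors. Fgf7, a mesenchymal FGF that acts on epithelia, had levels of 59.2 in NSEB5-2C, 4.33 in NS21 and 1.61 (not above background) in NS195R, against 10.4 in Mixture. NSEB5-2C was 13.7-fold above NS21, the next line, and the only line above Mixture. Fgf10, also mesenchymal and closely related to Fgf7, was not above background in NS21 (0.78) and had levels of 3.66 in NS195R and 6.42 in NSEB5-2C, against 7.57 in Mixture. Of 4 mesenchyme markers all 4 were well above background in every line, with summed levels of 3361 in NSEB5-2C, 340 in NS21 and 1735 in NS195R against 21620 in Mixture. Col1a2 carried the NSEB5-2C sum (2599), while Dcn was lowest there, at 16.1 in NSEB5-2C, 145 in NS21 and 779 in NS195R, so the markers did not share 1 order of lines. Their part in these values was not tested.

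Fgf5, an epiblast and hair-cycle factor, was well above background in NSEB5-2C alone, at 22.4, with 2.99 in NS21, 0.93 in NS195R and 2.50 in Mixture, none above background. NSEB5-2C exceeded both other lines by at least 7.42-fold. The epiblast and ES cell gene Pou5f1 was well above background in NS21 alone (36.3) and Zfp42 in NSEB5-2C alone (7.09), while Nanog was not above background on any array. Esrrb, among the lines, was above background in NS21 alone (198), with 47.8 in Mixture. The 5 pluripotent cell markers summed to 2000 in NSEB5-2C, 413 in NS21 and 408 in NS195R, against 1531 in Mixture. Klf4 made up most of that sum in NSEB5-2C (1990), NS195R (402) and Mixture (1481). The part of these markers in the Fgf5 values was not tested.

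Fgf9, a FGF of lung, gonad and neurons, was well above background in NS21 (31.6) and Mixture (43.1) and not in NS195R (1.10) or NSEB5-2C (0.78). NS21 exceeded both other lines by at least 11.5-fold. Fgf1, a broadly acting FGF, showed the opposite arrangement, at 16.4 in NSEB5-2C, 1.06 (not above background) in NS21 and 39.7 in NS195R, against 41.3 in Mixture. NS21 lay at least 5.43-fold below the lower of the other lines. A second Fgf1 probe gave 14.4 (NS195R), 0.85 (NS21) and 7.14 (NSEB5-2C), against 6.01 in Mixture, with NS21 again not above background.

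The FGF homologous factors Fgf11, Fgf12 and Fgf13 stay inside the cell and bind voltage-gated sodium channels in neurons. All 3 were highest in NS195R. Fgf11 had levels of 13.1 in NSEB5-2C, 17.2 in NS21 and 70.5 in NS195R, against 12.3 in Mixture, and NS195R was 4.10-fold above the next line. A second Fgf11 probe gave 6.635 (NS195R), 6.003 (NS21) and 4.662 (NSEB5-2C) against 2.462 (not above background) in Mixture. NS195R was the highest line on that probe too, but lay less than 2-fold above the other lines. Fgf12 was well above background in NS195R (49.7) and Mixture (26.2) and not in NS21 (0.72) or NSEB5-2C (0.66), which put NS195R at least 16.5-fold above both. Its second probe gave 8.28 in NS195R and 10.8 in Mixture, and was not above background elsewhere.

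Fgf13 had levels of 0.58 in NSEB5-2C, 0.93 in NS21 and 11.6 in NS195R, against 36.9 in Mixture, with NS195R at least 3.84-fold above both other lines. One Fgf13 probe was instead above background in NS21 alone (4.40), so its probes did not share 1 order of lines. Fgf14, another homologous factor, was not above background on any array. Neuron markers did not share 1 order of lines, with 5 of 5 well above background in NS195R, against 3 in NS21 and 2 in NSEB5-2C, and summed levels of 993 (NS195R), 263 (NS21) and 84.4 (NSEB5-2C), against 280 in Mixture. Map2 made up most of the NS195R sum (888), and Tubb3 was lowest there, at 57.2 in NSEB5-2C, 223 in NS21 and 24.5 in NS195R, against 171 in Mixture. Dcx, a young neuron marker, had levels of 0.62 in NSEB5-2C, 0.65 in NS21 and 47.9 in NS195R, against 41.5 in Mixture. Oligodendrocyte lineage markers also summed highest in NS195R (7579), with 204 in NS21, 140 in NSEB5-2C and 605 in Mixture. Olig1 (5307) and Olig2 (2147) made up most of that sum, while Mbp was not above background in NS195R (2.19) and had 184 in NS21 and 129 in NSEB5-2C. Astrocyte markers summed to 101.5 in NSEB5-2C, 85.4 in NS21 and 2165 in NS195R, against 2303 in Mixture, with Gfap not above background on any array. The part of these cell types in the homologous factor values was not tested.

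Of the FGF ligands, 10 were not well above background on any array. They were Fgf2, Fgf3, Fgf6, Fgf14, Fgf15, Fgf16, Fgf17, Fgf20, Fgf22 and Fgf23, with probe levels of 0.64 to 3.95 for their brightest probes. Fgf2, the factor commonly added to neural progenitor medium, had a level of 1.27 in NSEB5-2C, 1.31 in NS21 and 1.27 in NS195R, against 0.98 in Mixture, none well above background. Endogenous Fgf2 RNA was thus not detectable at this signal, which does not show that it was absent.

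Fgfr1, the main FGF receptor of neural stem cells, had levels of 295 in NSEB5-2C, 120 in NS21 and 205 in NS195R, against 25.9 in Mixture. Every line was above Mixture, by 7.47-fold on average (log2 2.90, SE 0.68, limma adjusted p = 0.102), which does not pass. All 4 probes of the gene were above Mixture in every line. The log2 ratio was 2.18 to 2.90 on 3 of them, and the other was dim in Mixture and at least 13.2-fold higher in the lines. Fgfrl1, a receptor-like protein without a kinase, had levels of 306 in NSEB5-2C, 127 in NS21 and 616 in NS195R, against 139 in Mixture. NS195R was 2.01-fold above NSEB5-2C, and NS21 was 2.41-fold below NSEB5-2C, with a log2 ratio to Mixture of -0.13. The mean log2 ratio of the lines was 1.05 (SE 1.07, limma adjusted p = 0.565).

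Fgfr3, a receptor of ventricular zone progenitors and astrocytes, had levels of 58.2 in NSEB5-2C, 80.6 in NS21 and 72.3 in NS195R, against 91.4 in Mixture. Its log2 ratio was -0.39 (SE 0.40, limma adjusted p = 0.563) and turned to 0.36 with median scaling, and another of its probes gave 0.41. Fgfr4, a receptor of liver and other endoderm, had levels of 74.1 in NSEB5-2C, 10.7 in NS21 and 82.4 in NS195R, against 330 in Mixture. All 3 Fgfr4 probes were below Mixture in every line, with log2 ratios of -3.04 to -2.28 (SE 1.52 for the brightest, limma adjusted p = 0.279), and NS21 was 6.93-fold below the lower of the other lines.

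Fgfr2, whose splice forms serve epithelium or mesenchyme, gave probes that disagreed. The brightest had levels of 3.07 in NSEB5-2C, 28.8 in NS21 and 34.2 in NS195R, against 52.0 in Mixture (log2 -1.85, SE 1.77). A second had 4.24 (NS195R), 7.88 (NS21) and 1.12 (NSEB5-2C) against 1.08 in Mixture, with only NS21 and NS195R above background. The remaining probe had 6.80 (NS195R), 3.59 (NS21) and 0.67 (NSEB5-2C) against 6.82 in Mixture (log2 -1.43), with NS195R alone above background among the lines. NSEB5-2C was the lowest line on the brightest probe and not above background on the others, and the brightest put it 9.40-fold below NS21, while the direction against Mixture depended on the probe.

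**Figure D2:**
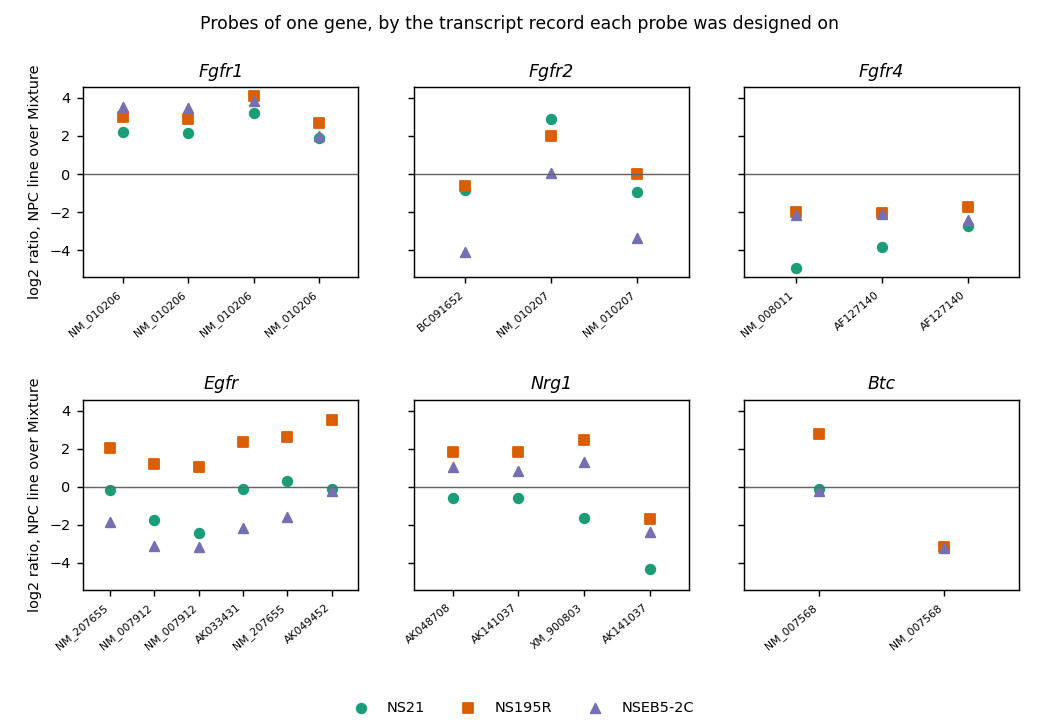
Log2 ratio of each NPC line to Mixture for every probe of 6 genes that was well above background on at least 1 array, grouped by gene, with the transcript record of each probe below it and dim values plotted as measured. Fgfr1 lies above 0 on 4 of 4 probes and Fgfr4 below 0 on 3 of 3, the 6 Egfr probes keep NS195R highest, and the probes of Fgfr2, Nrg1 and Btc fall on both sides of 0.

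Of the 9 EGF family ligands, 7 were tested. By limma 3 fell and 0 rose, beside 8.91% and 0.943% of all genes tested. Of those 3, Nrg4 and Btc entered the test through Mixture alone. Areg and Hbegf stood above Mixture in every line without passing limma. Areg, amphiregulin, which acts on EGFR, had levels of 447.5 in NSEB5-2C, 102 in NS21 and 74.0 in NS195R, against 1.48 in Mixture, where it was not well above background. The lines were at least 47.9-fold higher (log2 6.67 as measured, SE 1.28, limma adjusted p = 0.0784), and NSEB5-2C was 4.38-fold above NS21. With normexp correction the log2 ratio of 2.56 lies under that bound. Hbegf, heparin-binding EGF-like growth factor, had levels of 1513 in NSEB5-2C, 858 in NS21 and 269 in NS195R, against 88.4 in Mixture. The lines were 7.97-fold above Mixture on average (log2 2.99, SE 1.19, limma adjusted p = 0.204), and NS195R was the lowest line, 3.20-fold below NS21.

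Egf itself, made mainly in kidney and salivary gland, had levels of 1.62 (not above background) in NSEB5-2C, 5.43 in NS21 and 5.33 in NS195R, against 1254 in Mixture. It fell by 8.44 on the log2 scale in the lines (SE 0.95, 348-fold, limma adjusted p = 0.0283), and with normexp correction the log2 ratio was -5.52. Umod, a kidney tubule marker, was not above background in any line and stood at 8786 in Mixture. The part of kidney RNA in the Egf ratio was not tested.

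Nrg4, a neuregulin of adipose tissue that acts through ERBB4, had levels of 1.16 in NSEB5-2C, 1.19 in NS21 and 0.61 in NS195R, none above background, against 16.9 in Mixture. It was at least 5.96-fold lower in the lines (limma adjusted p = 0.0444), and with normexp correction it did not pass (adjusted p = 0.0802). Btc, betacellulin, had levels of 0.76 in NSEB5-2C, 0.76 in NS21 and 0.78 in NS195R, none above background, against 7.01 in Mixture. That probe was at least 2.48-fold lower in the lines (limma adjusted p = 0.0249), but with normexp correction its adjusted p was 0.285. A second Btc probe was above background in NS195R alone, at 4.91, with 0.68 in NS21, 0.62 in NSEB5-2C and 0.72 in Mixture, so the direction of Btc rests on the probe.

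Nrg1, the neuregulin of Schwann cell, heart and cortical development, had levels of 12.2 in NSEB5-2C, 3.99 in NS21 and 21.7 in NS195R, against 6.01 in Mixture (log2 0.76, SE 1.16, limma adjusted p = 0.706). NS21 was 3.05-fold below the lower of the other lines. A second Nrg1 probe gave 15.4 (NS195R), 2.83 (NS21) and 7.61 (NSEB5-2C) against 4.27 in Mixture. Another gave 10.95 (NS195R), 0.64 (NS21) and 5.06 (NSEB5-2C) against 2.02 in Mixture. A further one gave 4.06 (NS195R), 0.67 (NS21) and 2.51 (NSEB5-2C) against 13.2 in Mixture. On these 3 probes NS21 was not above background, nor was NSEB5-2C on the last or Mixture on the first and second. NS195R was the highest line on the 4 probes given, above Mixture on 3 of them and below it on the last. The other Nrg1 probe was not above background on any array. Ereg, epiregulin, was above background in NSEB5-2C alone, at 6.24, with 0.77 in NS195R, 0.73 in NS21 and 0.80 in Mixture. A second Ereg probe, on another transcript record, was not above background on any array (2.50 in NSEB5-2C). Tgfa and Nrg3 were not well above background on any array.

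**Figure D3:**
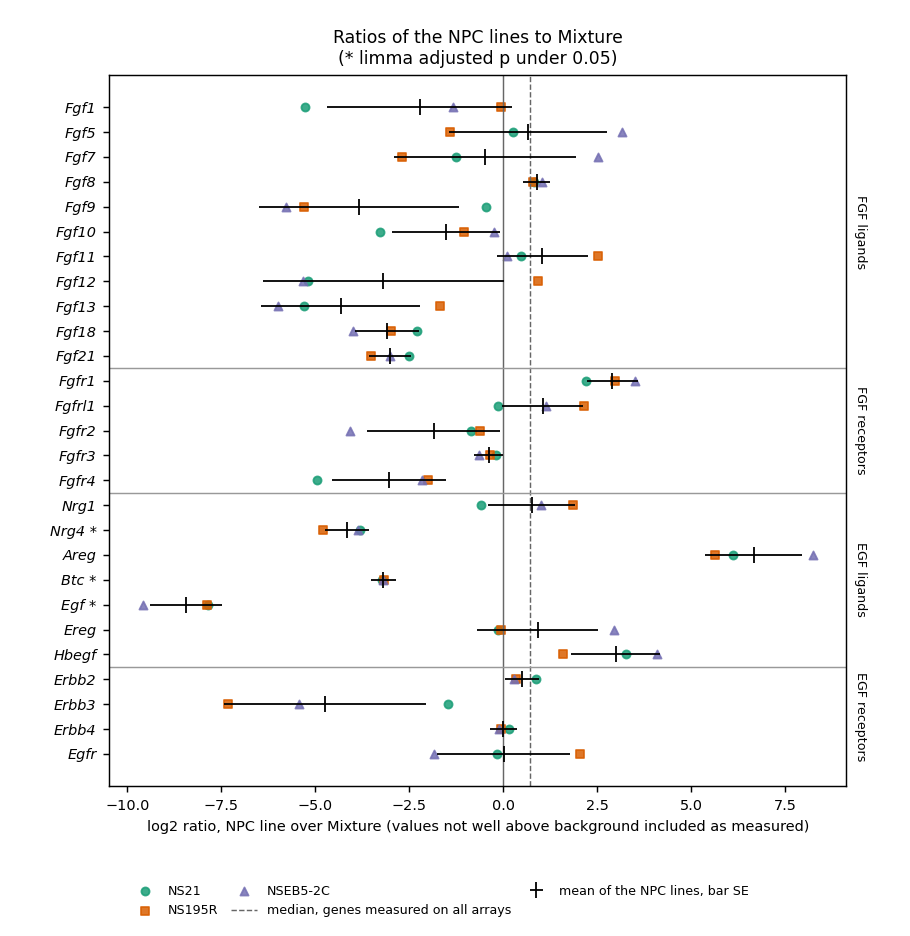
Log2 ratio of each NPC line to Mixture for the 27 tested members, one coloured symbol per line, with a black bar for the mean of the lines and its limma SE, a solid line at 0 and a dashed line at the median of 0.71. Asterisks mark Egf, Nrg4 and Btc, the 3 members that passed limma, and the widest spreads between lines lie among the ligands of the FGF family, Erbb3 and Egfr.

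Among the EGF family receptors, Egfr and Erbb3 had levels far apart between lines and Erbb2 and Erbb4 had levels close together. None passed limma against Mixture. Egfr, which binds EGF, amphiregulin and HB-EGF, had levels of 88.8 in NSEB5-2C, 285 in NS21 and 1304 in NS195R, against 318 in Mixture. NS195R was 4.58-fold above NS21, and NSEB5-2C was 3.21-fold below NS21, so the lines lay on both sides of Mixture. Their mean log2 ratio was 0.01 (SE 1.77, limma adjusted p = 0.997) and turned to -0.20 with quantile normalization.

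NS195R was the highest line on all 6 Egfr probes, while the ratio to Mixture differed between probes. Probes on record NM_007912 gave 13.7 in NSEB5-2C, 35.7 in NS21 and 275 in NS195R against 118 in Mixture, and 285 (NS195R), 25.7 (NS21) and 15.4 (NSEB5-2C) against 137 in Mixture. The second probe on NM_207655 gave 61.0 (NS195R), 11.98 (NS21) and 3.22 (NSEB5-2C, not above background) against 9.82 in Mixture. One on AK033431 gave 104 (NS195R), 18.8 (NS21) and 4.54 (NSEB5-2C) against 20.3 in Mixture. A probe on AK049452 was above background in NS195R alone, at 8.27. NS195R was above Mixture on 6 of 6 probes, NSEB5-2C on 0 and NS21 on 1. On the 5 probes above background in Mixture, the log2 ratio of the mean of the lines was -1.50 to 0.44.

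Erbb2, the ligandless partner of the other receptors, had levels of 148 in NSEB5-2C, 221 in NS21 and 151 in NS195R, against 121 in Mixture (log2 0.50, SE 0.45, limma adjusted p = 0.51). Both of its probes lay above Mixture in every line. Erbb3, a neuregulin receptor of Schwann and epithelial cells, had levels of 7.63 in NSEB5-2C, 118 in NS21 and 2.07 (not above background) in NS195R, against 328 in Mixture (log2 -4.74, SE 2.69, limma adjusted p = 0.326). NS21 was 15.5-fold above NSEB5-2C. These values come from 1 bright probe, on XM_972868, and the 4 probes on NM_010153 were not above background on any array. Erbb4, a neuregulin receptor of heart and neurons, had levels of 82.8 in NSEB5-2C, 99.2 in NS21 and 85.7 in NS195R, against 89.1 in Mixture, with a log2 ratio near 0 (SE 0.36, limma adjusted p = 0.996) that was 0.75 with median scaling. The Erbb4 values too come from 1 bright probe. Its other probes, on the same transcript record, were not above background on any array (0.55 to 2.61).

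The lines were then set against each other. Over the 13 members measured on every array the median span from highest to lowest line was 2.28 on the log2 scale, against 0.83 over 12728 genes. The range was 3.88 for Egfr, 3.48 for Fgfr2, 2.95 for Fgfr4 and 2.49 for Hbegf, and it was 0.24 for Fgf8, 0.26 for Erbb4, 0.47 for Fgfr3 and 0.58 for Erbb2.

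Of the 24 members well above background in at least 1 line, 17 (70.8%) had a line at least 2-fold from both other lines, beside 36.8% of all 17785 genes. The 7 that did not were Egf, Erbb2, Erbb4, Fgf8, Fgf10, Fgfr1 and Fgfr3. Fgf5, Fgf9, Fgf12, Fgf13 and Ereg entered the count only through the 1 line in which they count as higher. The same filter held for all genes, and its part in the 2 shares was not tested. NS21 was higher for 2 members (8.33%, beside 8.14% of all genes), Fgf9 and Erbb3, and lower for 4 (16.7%, beside 4.52%), Fgf1, Fgfr4, Fgfrl1 and Nrg1. NS195R was higher for 6 (25%, beside 11.5%), Fgf1, Fgf11, Fgf12, Fgf13, Fgfrl1 and Egfr, and lower for 2 (8.33%, beside 6.56%), Hbegf and Erbb3. NSEB5-2C was higher for 4 (16.7%, beside 6.25%), Fgf5, Fgf7, Areg and Ereg, and lower for 3 (12.5%, beside 7.02%), Fgf18, Fgfr2 and Egfr. The counts rest on each gene's brightest probe. Some other probes of Fgf11, Fgf13, Fgfr2, Fgfr4, Nrg1, Ereg and Erbb3 did not share the gap. For Egfr, some other probes did not share the gap of NSEB5-2C.

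These counts have no replicate behind them. By limma, 0 members and 0 of all genes passed for each line against the other lines. At an unadjusted p under 0.05 the members numbered 3 of 24 for NS195R and 5 of 24 each for NS21 and NSEB5-2C. The shares of all genes were 10.8% for NS195R, 5.45% for NS21 and 5.75% for NSEB5-2C. The smallest adjusted p of a member was 0.276 for NS195R, 0.773 for NS21 and 0.785 for NSEB5-2C.

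The pathway around the receptors was read from 4 gene lists. Beside their counts, 0.943% of all genes tested rose and 8.91% fell by limma. Of 16 proteoglycans and FGF co-receptors tested, 1 rose and 1 fell by limma, with a median log2 ratio of -0.28 beside 0.44 for all genes. Gpc2, a glypican of developing brain, had levels of 61.8 in NSEB5-2C, 74.3 in NS21 and 84.8 in NS195R against 5.999 in Mixture, and rose by 3.61 on the log2 scale (SE 0.39, adjusted p = 0.0265). Kl, the kidney co-receptor for FGF23, was not above background in any line (0.56 to 0.61) and stood at 334 in Mixture, at least 118-fold lower in the lines (adjusted p = 0.00846). Klb, the co-receptor for FGF21, had levels of 0.62 in NSEB5-2C, 33.6 in NS21 and 2.52 in NS195R against 41.4 in Mixture, and only NS21 was above background among the lines.

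Of 20 adaptors and members of the Ras-ERK cascade, 1 rose and 0 fell, and the median log2 ratio was 1.08. In every line 16 (80%) were above Mixture, beside 43% of all genes tested, which include dim ones. Over the 19 measured on all arrays the median was 1.025, beside 0.71 for all genes so measured. Map2k1, a kinase that activates ERK, had levels of 798 in NSEB5-2C, 743 in NS21 and 889 in NS195R against 136 in Mixture, and rose by 2.57 on the log2 scale (SE 0.36, adjusted p = 0.0422). At an unadjusted p under 0.05, 7 of the 20 were higher and 0 lower, beside 15.6% and 15.4% of all genes tested.

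Of 13 feedback and response genes tested, 3 rose and 0 fell, 12 (92.3%) met the study's rule beside 36.1% of all genes, and the median log2 ratio was 2.84. Etv4, a transcription factor induced by ERK, had levels of 1085 in NSEB5-2C, 1070 in NS21 and 824 in NS195R against 8.24 in Mixture (log2 6.90, SE 0.39, adjusted p = 0.00926). Dusp4, a phosphatase that inactivates ERK, had levels of 1036 in NSEB5-2C, 865 in NS21 and 479 in NS195R against 23.6 in Mixture (log2 4.997, SE 0.62, adjusted p = 0.0341). Spry4, a Sprouty inhibitor, had levels of 16.3 in NSEB5-2C, 18.2 in NS21 and 39.7 in NS195R and was not above background in Mixture (0.69), at least 7.27-fold higher in the lines (adjusted p = 0.0434). Spry3 was the 1 member that did not meet the rule.

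Of 12 sheddases and inhibitors of ERBB signalling, 0 rose and 0 fell by limma, with a median log2 ratio of 1.02, and 0 were higher or lower at an unadjusted p under 0.05. The largest ratios were those of Lrig1, which promotes receptor turnover, with a log2 ratio of 1.87 (SE 1.77) and of Socs5, with 1.53 (SE 0.52). The sheddase Adam17, which releases amphiregulin and HB-EGF, had levels of 249 in NSEB5-2C, 223 in NS21 and 340 in NS195R against 119 in Mixture. No member of this list passed the test.

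**Figure D4:**
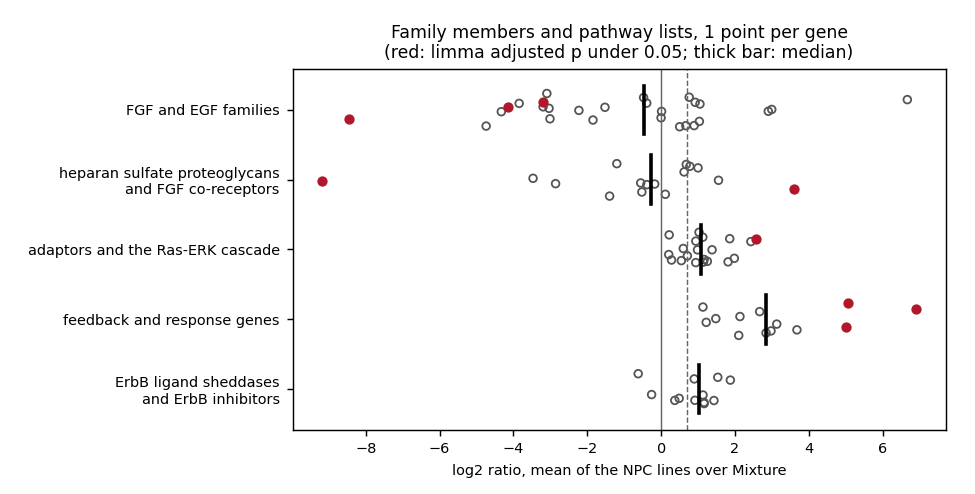
Log2 ratio of the mean of the NPC lines to Mixture, 1 point per tested gene, for the FGF and EGF families and the 4 pathway lists, with thick bars at each list's median, red for genes that passed limma and a dashed line at 0.71. The family median is -0.48, the response genes have a median of 2.84, and the red points include 3 response genes above 0 and 3 family members below 0.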

How the data were processed

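Total RNA of 4 mouse samples, 0.25 ug each, was labelled with Cy3 and hybridised to 1-colour Agilent arrays. Per the file headers, Agilent Feature Extraction version 9.5.3.1 subtracted background and gave each spot a processed intensity. The deposited value table held the same intensity at every one of its 180072 values, so its scale is that of the processed signal, uncentred. Columns of other samples numbered 0. The arrays shared 1 slide and 1 scan.

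Here the log2 of the processed signal was taken and each array's percentile 75 over the 43379 non-control spots was subtracted. Spots marked non-uniform or population outlier were not used, values of the 10 copies that some probes have were averaged, and 19 probes lacking a value, none of them a member, were dropped. Symbols were updated with RefSeq's gene table (GRCm38.p6), in which all 39 members were found. The sources used here do not name a genome build for the probe positions. A gene was represented by its brightest probe by mean log2 signal, and tests covered the 19820 genes measured above background somewhere. A probe counted as well above background where more than 50% of its copies in use carried that mark.

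The lines were compared with Mixture, and each line with the other lines, by limma 3.58.1 in R 4.3.3, with lmFit followed by eBayes. Tests were two-sided, with Benjamini-Hochberg adjustment over all genes tested and a threshold of 0.05. Against Mixture there were 2 residual degrees of freedom, to which the prior added 1.33. Between lines there was 1, to which it added 1.37 to 1.50. A single array standing for a group was assumed to vary like the others. A ratio given as "at least" is a bound, used where no array of the dimmer group measured the probe well above background. It sets the mean of the brighter group against the dimmer group with each array's signal raised, where lower, to that array's lowest signal well above background. In the 2-fold counts between lines, signals that were not well above background were raised to that lowest signal, while limma used them as measured. The fit was tested on simulated data.

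Every member is named, and pathway lists give the members that passed limma or otherwise those with the largest ratios. Single genes of marker and pathway lists named beyond that, such as Dcx, Tubb3, Umod and Spry3, were chosen after their values were seen. Members and lists were chosen with earlier results of these data known. Alternatives covered normexp background correction with an offset of 50, quantile or median scaling, filters on dim probes, the mean of a gene's probes, an intensity trend in eBayes and leaving out each line.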

Additional observations from a re-analysis of the deposited data

Results flagged for a closer look

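For Fgf7 and Egfr, 1 line lay at least 2-fold above Mixture and another at least 2-fold below it. Fgf7 was 2.51 above Mixture on the log2 scale in NSEB5-2C, and below it in NS21 (log2 -1.26) and NS195R (log2 -1.92 or lower, with its dim signal raised to the lowest well above background), a span of at least 4.43. Egfr was 2.04 above Mixture in NS195R and below it in NSEB5-2C (log2 -1.84) and NS21 (log2 -0.16), a span of 3.88. The same held for 2 of 27 members (7.41%) and for 916 of 19820 genes tested (4.62%). By limma over the 3 lines, NSEB5-2C against the other lines gave log2 4.49 for Fgf7 (SE 0.93, adjusted p = 0.786) and NS195R against the other lines gave log2 3.04 for Egfr (SE 1.02, adjusted p = 0.553). Neither passed.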

How the results depend on the processing

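Of the ratios of the 27 members, the direction turned under some setting for Fgf7 (0.21 with normexp, 0.17 with quantile normalization, 0.28 with median scaling, -1.97 to 0.63 when a line was left out), Egfr (-0.20 with quantile normalization, -0.20 with the mean of probes, -1.001 to 0.94 when a line was left out), Erbb4 (0.031 with quantile normalization, 0.75 with median scaling, 0.12 with the mean of probes, -0.082 to 0.049 when a line was left out), Fgfr3 (0.36 with median scaling) and Nrg1 (-0.036 with the mean of probes). The cause was not tested. Normexp moved all genes higher to 966 and members lower to 1, and changed the lines' counts to 1 higher and 2 lower for NS21, 3 and 1 for NS195R, 2 and 1 for NSEB5-2C. All genes higher became 588 with quantile normalization, 525 without the filter on dim probes and 473 with an intensity trend. Median scaling left 1 member lower. Requiring signal on all arrays of the fit left 0 calls among all genes in either direction and 0 members lower, with line counts of 0 higher for NS21, 3 higher and 1 lower for NS195R and 1 higher for NSEB5-2C. The mean of probes gave 1 member higher in NS21 and 1 lower in NS195R, and Fgf21 passed with it (log2 -3.98, adjusted p = 0.0174). Without any 1 line, all genes higher, all genes lower and members lower ranged from 0 to 0 by limma, with 1431 to 2249 higher and 2816 to 3315 lower at an unadjusted p under 0.05. Egf then had adjusted p of 0.0778 to 0.138. Btc and Nrg4 each lost their call in 6 alternatives, and Egf in 3. Leaving out Mixture was impossible as it is the sole comparator. The median ratio of all genes was 0.53 with normexp and 1.46 with median scaling. No paired analysis was possible because the groups share fewer than 2 replicate numbers.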
